A study of Mus musculus with 11 samples.

Results

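The 10 genes described here encode proteins that fill, build and work inside secretory granules: the granins Chga, Chgb, Scg2, Scg3 and Vgf, the granule chaperone Scg5, the convertase inhibitor Pcsk1n, the prohormone convertases Pcsk1 and Pcsk2, and the carboxypeptidase Cpe. They were taken by gene symbol from a deposited table of 16228 genes. All 10 were in it, and all 10 were kept among the 14330 genes that reached a normalised signal of at least 1 in at least 3 libraries. The set was chosen by known function with results of these data in view, among them that Scg5 had passed the test for Prkcz cKO against controls. For that reason the members' values of that comparison are given as a description without p-values. The call of Scg5 there is named as what entered the choice, with the settings under which it was lost.

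RNA was sequenced from punches of cerebral cortex of mice at postnatal day 30, with 1 library per mouse and 11 in all. The conditional knockouts (cKO) were 4 mice labelled Ng2 Cre+ Prkci f/f (Prkci cKO) and 3 labelled Ng2-Cre+ Prkcz f/f (Prkcz cKO). The 4 controls carried floxed Prkcz alleles, Pkcz f/f in replicates 3 and 4 and Pkcz f/+ in replicates 1 and 2, with no Cre in their labels; none of these controls was of the Prkci line. No mouse was treated. Prkci and Prkcz encode the atypical protein kinases C of cell polarity, and Ng2-Cre is expressed from control sequences of Cspg4, a gene that oligodendrocyte precursors and pericytes use. Cre and line coincide with the groups, so their effects cannot be told apart from that of the kinase. In such whole tissue, fewer cells of a type and less RNA per cell cannot be told apart either.

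Peptide hormones and neuropeptides are made as long precursors, which enter dense-core granules together with granins. Inside the granule, the convertases cut the precursors at pairs of basic residues, and Cpe trims the basic residues left at the new ends. Scg5 (also called 7B2) helps pro-Pcsk2 to mature and keeps it inactive until it reaches the granule. Pcsk1n (proSAAS) inhibits Pcsk1. In cortex most of these genes are typical of neurons, and Cpe and Scg3 are also made by astrocytes. Transcription of Vgf and Scg2 is known to respond to neuronal activity, through cAMP response elements among other sites.

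Promoter windows are shown for the member whose libraries lay above all controls in both knockouts (Scg5) and for the 3 members whose window held the full cAMP response element TGACGTCA (Scg2, Chgb and Pcsk1). Windows run from 250 bases before to 50 bases after the start of the gene, 300 bases in all, and come from RefSeq on GRCm38.p6. They matched 8 of the 10 members; Vgf and Cpe were not matched. Capitals mark TGACGTCA and its shorter core TGACG on either strand, and each full element holds 2 overlapping cores. The windows are, for Scg5, chr2:113829042-113829341, minus strand, for Scg2, chr1:79439977-79440276, minus strand, for Chgb, chr2:132781392-132781691, plus strand, and for Pcsk1, chr13:75089607-75089906, plus strand.
Scg5: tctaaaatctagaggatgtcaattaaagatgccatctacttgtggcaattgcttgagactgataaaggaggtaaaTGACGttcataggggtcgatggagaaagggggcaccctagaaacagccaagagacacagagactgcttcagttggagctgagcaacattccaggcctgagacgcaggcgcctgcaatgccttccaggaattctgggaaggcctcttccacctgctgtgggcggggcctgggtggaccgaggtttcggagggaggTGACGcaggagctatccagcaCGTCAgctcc
Scg2: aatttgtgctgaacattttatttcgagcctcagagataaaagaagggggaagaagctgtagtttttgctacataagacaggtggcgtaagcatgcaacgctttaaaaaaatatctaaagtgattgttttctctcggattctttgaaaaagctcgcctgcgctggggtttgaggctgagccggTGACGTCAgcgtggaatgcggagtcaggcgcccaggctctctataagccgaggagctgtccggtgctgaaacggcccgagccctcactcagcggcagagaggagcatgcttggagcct
Chgb: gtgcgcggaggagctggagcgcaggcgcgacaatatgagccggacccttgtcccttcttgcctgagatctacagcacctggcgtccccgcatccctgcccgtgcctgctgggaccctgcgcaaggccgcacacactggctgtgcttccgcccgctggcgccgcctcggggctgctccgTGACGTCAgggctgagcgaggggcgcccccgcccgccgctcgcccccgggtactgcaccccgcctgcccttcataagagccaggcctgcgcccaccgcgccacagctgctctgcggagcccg
Pcsk1: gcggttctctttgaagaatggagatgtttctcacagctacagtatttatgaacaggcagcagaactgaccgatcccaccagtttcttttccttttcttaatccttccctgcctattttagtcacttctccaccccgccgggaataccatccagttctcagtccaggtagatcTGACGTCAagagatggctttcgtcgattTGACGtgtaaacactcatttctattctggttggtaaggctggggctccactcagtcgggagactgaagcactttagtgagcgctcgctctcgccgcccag
The full element lay 68 bases before the RefSeq start of Scg2, 72 before that of Chgb and 78 before that of Pcsk1, counted to its first base. GENCODE, used for the gene positions below, places the starts elsewhere. By its positions the elements of Scg2 and Chgb lie inside the gene. It was found in 588 of all 32851 promoter windows of this length, or 1.79%. The TGACG core was found in 20.8% of windows. Scg5 had 3 cores and no full element, and Pcsk1 had 1 core beside its full element. Chga, Pcsk2 and Scg3 had 1 core each, and Pcsk1n had none. A match is a description of letters, not of a factor bound there.

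Prkcz cKO replicate 3 was the shallowest, with an effective depth of 14740000 reads, while the others had 20620000 to 28170000. On the log scale, replicates of a group had Pearson correlations of 0.992 to 0.996. As a check of the labels, Prkci was lower in Prkci cKO than in controls, with a difference of -0.39 in log2 (SE 0.045; adjusted p = 9.84e-04 by limma). Prkcz in Prkcz cKO differed by -0.22 (SE 0.055) and did not pass (adjusted p = 0.0966). The neuronal genes Rbfox3 (367 to 412) and Slc17a7 (1968 to 2224) were present at these levels in every library. The choroid plexus gene Ttr ranged from 78.7 to 877. No sequencing batch or date is given in the labels.

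Per kilobase of exon (the union of GENCODE M21 exons), Cpe had the highest level of the set. Its normalised signal per kilobase averaged 742 over the 11 libraries, with a range of 702 to 789.6. Chgb (217) and Scg3 (136) came next, then Scg5 (107), Pcsk1n (94.9), Scg2 (94.0), Vgf (85.3) and Pcsk2 (74.1). From Scg3 to Pcsk2 the range of each gene over the libraries overlapped that of the next in order. Such ranges ignore that the genes share libraries. Within a library, Scg3 lay below Scg5 only in Prkcz cKO replicate 3 (132.35 against 132.83). Scg5 lay below Pcsk1n only in Control replicate 1 (97.91 against 102.95), and Vgf below Pcsk2 only in Control replicate 2 (73.86 against 74.8). Pcsk1n and Scg2, and Scg2 and Vgf, changed places in more libraries. Chga followed at 53.5. Pcsk1 was lowest at 6.97 (6.23 to 7.59), so the convertase Pcsk2 was higher per length than the convertase Pcsk1 in every library. Lengths of the transcripts made in this tissue were not measured, so this order is approximate.

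**Figure D1:**
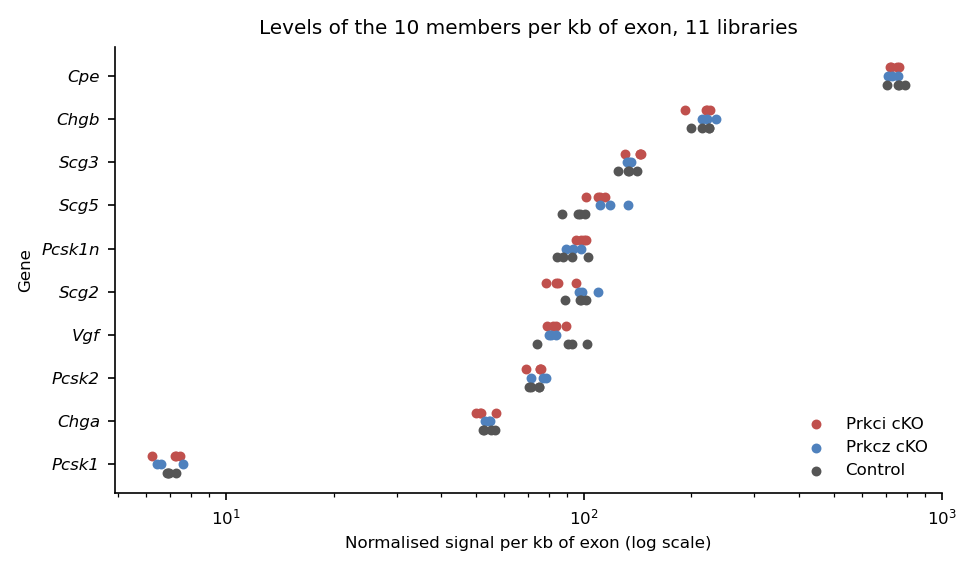
Normalised signal per kilobase of exon (log axis) for each of the 10 genes, with 1 point per library coloured by group, Prkci cKO above Prkcz cKO above Control in each row. Cpe lies above all others at 702 to 789.6, and Pcsk1 lies lowest at 6.23 to 7.59.

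Scg5, the chaperone of Pcsk2 (chromosome 2, 113776362 to 113829121, minus strand, GRCm38), lay higher in every knockout library than in any control. Its normalised signal was 172, 159, 179.5 and 174 in Prkci cKO libraries, 186, 174 and 208 in Prkcz cKO libraries and 154, 158, 152 and 137 in controls. The 7 knockout libraries did not overlap the 4 controls, but the margin was narrow at one point: Prkci cKO replicate 2 was at 159 and Control replicate 2 at 158. Of all genes, 3.18% lay above every control in all Prkci cKO libraries and 5.16% in all Prkcz cKO libraries. The share that did both was not counted, and the Prkcz cKO and control values entered the choice of genes. The group means of Scg5 were 171 ± 8.74 in Prkci cKO (SD, n = 4), 189.5 ± 17.5 in Prkcz cKO (SD, n = 3) and 149.9 ± 9.16 in controls (SD, n = 4). For Prkcz cKO against controls, the comparison that led to the choice of genes, the log2 difference was 0.34 (SE 0.067), or 26.4% higher; this is the call that entered the choice. The call was lost in the fit with no variance trend, in the fit of these 2 groups alone and against the f/f controls alone. It was also lost without any one of the 7 libraries, with differences of 0.26 to 0.40. For Prkci cKO against controls it was 0.19 (SE 0.062, 14.2% higher), which did not pass over all genes (limma adjusted p = 0.200; 95% confidence interval 0.057 to 0.33). Both comparisons use the same 4 controls, so the Prkci cKO difference is not independent of the choice of genes. The knockouts themselves overlapped, and Prkci cKO differed from Prkcz cKO by -0.14 (SE 0.067, adjusted p = 0.315, interval -0.29 to 0.00097). The highest library of all, Prkcz cKO replicate 3, was also the shallowest. Without it the log2 difference of Prkcz cKO from controls was 0.26, and that between the knockouts was -0.074.

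Scg2 (secretogranin II, chromosome 1, 79434669 to 79440120, minus strand) was the 1 of 10 members whose libraries did not overlap between the knockouts, as was the case for 13.8% of all genes tested. Its signal was 197, 214, 239 and 211 in Prkci cKO libraries, 249, 244 and 276 in Prkcz cKO libraries and 246, 223, 248 and 256 in controls. Every Prkci cKO library lay below every Prkcz cKO library, with controls spread over both. Means were 215 ± 17.4 in Prkci cKO (SD, n = 4), 256 ± 17.1 in Prkcz cKO (SD, n = 3) and 243 ± 14.1 in controls (SD, n = 4). The log2 difference between Prkci cKO and Prkcz cKO was -0.25 (SE 0.068, interval -0.40 to -0.10) and did not pass over all genes (limma adjusted p = 0.149). Against controls, Prkci cKO differed by -0.18 (SE 0.063, adjusted p = 0.256), and Prkcz cKO by 0.075 (SE 0.068). Markers of striatal medium spiny neurons moved with Scg2. The mean log2 level of 13 such markers was 3.72 to 4.66 in Prkci cKO, 4.80 to 5.96 in Prkcz cKO and 4.83 to 5.43 in controls. Their summed signal was 437 to 788 in Prkci cKO, 854 to 1871 in Prkcz cKO and 841 to 1395 in controls, and no measured marker of the list was at 0. Prkcz cKO replicate 3 had the highest value of both Scg2 and the striatal markers. The part of striatal tissue in the Scg2 difference was not tested. Without Prkcz cKO replicate 3 the Scg2 difference between the knockouts was -0.20.

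Vgf (chromosome 5, 137026392 to 137033351, plus strand), a granin-like precursor of several secreted peptides, varied more among the controls than between groups. Its signal was 235, 249, 266 and 245 in Prkci cKO libraries, 238, 248 and 241 in Prkcz cKO libraries and 269, 219.6, 276 and 303 in controls. The controls enclosed all 7 knockout libraries, with Control replicate 2 the lowest of the 11 and Control replicate 4 the highest. The coefficient of variation was 5.19% in Prkci cKO and 2.16% in Prkcz cKO, against 13.1% in controls. Its pooled within-group SD (0.13 on the log2 scale) was at or above that of 85.6% of the 6158 genes with a mean log2 signal of at least 5. The f/f controls (replicates 3 and 4) averaged 289.7 and the f/+ controls (replicates 1 and 2) 245, a log2 difference of 0.25 (SE 0.088, n = 2 each) that did not pass (limma adjusted p = 0.301). Prkci cKO differed from controls by -0.10 (SE 0.077, adjusted p = 0.688, interval -0.26 to 0.071), and Prkcz cKO by -0.13 (SE 0.084). These sizes rested on single controls. Prkci cKO differed by -0.19 without Control replicate 2, -0.031 without Control replicate 4 and -0.22 against the f/f controls alone. Prkcz cKO differed by -0.22 without Control replicate 2, -0.065 without Control replicate 4 and -0.25 against the f/f controls alone. Immediate early genes are switched on by neurons with activity. By mean log2 level, 22 of them put every control above every knockout library, unlike Vgf. That level was 4.64 to 4.92 in Prkci cKO and 4.55 to 4.91 in Prkcz cKO. It was 4.98 in Control replicate 2 and 5.55 to 5.78 in the other controls. By summed signal, Control replicate 2 (1224) lay below the highest library of Prkci cKO (1247) and of Prkcz cKO (1280). The 3 libraries highest in immediate early genes were also the 3 highest in Vgf, and Control replicate 2 was the control lowest in both, though in Vgf it also lay below all knockout libraries. In Prkci cKO 8 of the 22 immediate early genes fell and in Prkcz cKO 9 fell, among them Fos, Junb, Sik1, Dusp1, Arc and Npas4 in both. The log2 difference of Fos was -1.48 in Prkci cKO and -2.12 in Prkcz cKO. The part of neuronal activity in the Vgf levels was not tested.

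**Figure D2:**
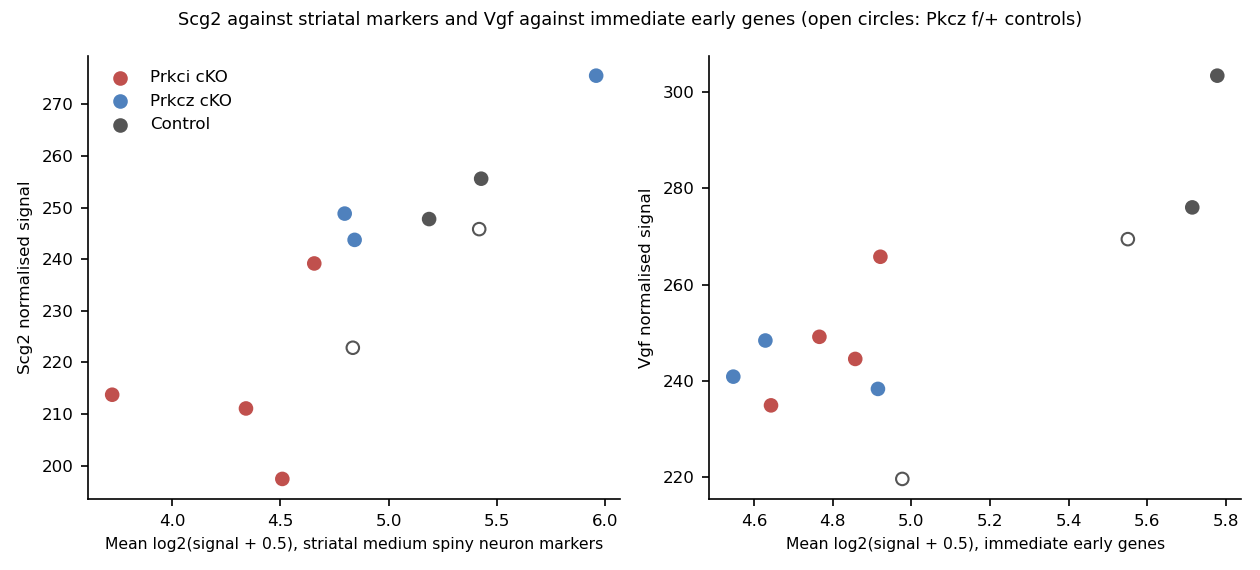
Left, Scg2 signal against the mean log2 level of 13 striatal markers; right, Vgf signal against the mean log2 level of 22 immediate early genes; 1 point per library, with open circles for f/+ controls. The 4 Prkci cKO libraries have the lowest striatal levels (3.72 to 4.66), and the 3 controls highest in immediate early genes have the 3 highest Vgf values.

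The libraries of the other granins overlapped between the 3 groups. Chga (chromogranin A, which drives granule formation and yields several peptides) had a signal of 141, 157, 142 and 138 in Prkci cKO libraries, 147, 149.5 and 151 in Prkcz cKO libraries and 156, 145, 152 and 145 in controls. The groups overlapped, and Chga was among the steadiest members, with a pooled SD of 0.060 on the log2 scale. Prkci cKO differed from controls by -0.047 (limma adjusted p = 0.753, interval -0.15 to 0.053). Chgb (chromogranin B, an abundant core protein of granules) had 525, 606, 617 and 602 in Prkci cKO libraries, 586, 642 and 605 in Prkcz cKO libraries and 587, 545, 615 and 613 in controls. One Prkci cKO library, replicate 1, lay below all others, and the rest overlapped. Prkci cKO differed from controls by -0.0073 (interval -0.13 to 0.12, adjusted p = 0.979). Scg3 (secretogranin III, which binds Chga and cholesterol-rich granule membrane) had 395, 393, 356 and 396 in Prkci cKO libraries, 367, 371 and 362 in Prkcz cKO libraries and 386, 366, 342 and 365 in controls. Of the 4 Prkci cKO libraries 3 lay above every control, but replicate 3 lay within them, and the difference of 0.078 did not pass (interval -0.025 to 0.18, adjusted p = 0.565). Prkcz cKO differed from controls by -0.0019 in Chga, 0.052 in Chgb and 0.011 in Scg3, with SEs of 0.050 to 0.064.

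The libraries of both convertases overlapped between groups as well. Pcsk2, the convertase that Scg5 assists, had a signal of 544, 598, 598 and 602 in Prkci cKO libraries, 608, 565 and 621 in Prkcz cKO libraries and 594, 592, 557 and 564 in controls. The groups overlapped throughout, with Prkci cKO replicate 1 the lowest library. Prkci cKO differed from controls by 0.021 (limma adjusted p = 0.905, interval -0.083 to 0.13), and Prkcz cKO by 0.052 (SE 0.052). Pcsk1, which starts the cutting of many precursors, had 34.9, 40.5, 41.7 and 40.7 in Prkci cKO libraries, 42.5, 36.1 and 36.9 in Prkcz cKO libraries and 40.6, 38.5, 38.5 and 39.0 in controls. Controls were tight, at 38.5 to 40.6, and each knockout spread to both sides of them. Its differences from controls were 0.0066 in Prkci cKO (interval -0.14 to 0.15, adjusted p = 0.984) and -0.029 in Prkcz cKO (SE 0.072). The annotation places 2 antisense genes over Pcsk2, which share 260 and 99 bases of its exons, and the labels do not say whether strand was used in counting.

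The inhibitor Pcsk1n had a signal of 222, 215, 209 and 220.2 in Prkci cKO libraries, 196, 216 and 205 in Prkcz cKO libraries and 226, 192, 203 and 184.5 in controls. Prkci cKO libraries lay toward the upper end, within the range of controls, and differed by 0.11 (limma adjusted p = 0.495, interval -0.015 to 0.23). That difference was 0.17 without Control replicate 1 and 0.069 without Control replicate 4. Prkcz cKO differed from controls by 0.032 (SE 0.063). Eras overlaps 135 bases of Pcsk1n exons on the other strand. Cpe, which trims the cut ends and was the most abundant member, had 1985, 1953, 1886 and 1878 in Prkci cKO libraries, 1852, 1973 and 1895 in Prkcz cKO libraries and 1977, 1989.5, 1832 and 2060.2 in controls. Controls spanned all the knockout libraries. Its differences from controls were -0.028 in Prkci cKO (interval -0.14 to 0.079, adjusted p = 0.877) and -0.042 in Prkcz cKO (SE 0.054). Cpe had the lowest pooled within-group SD of the set, 0.055 on the log2 scale.

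**Figure D3:**
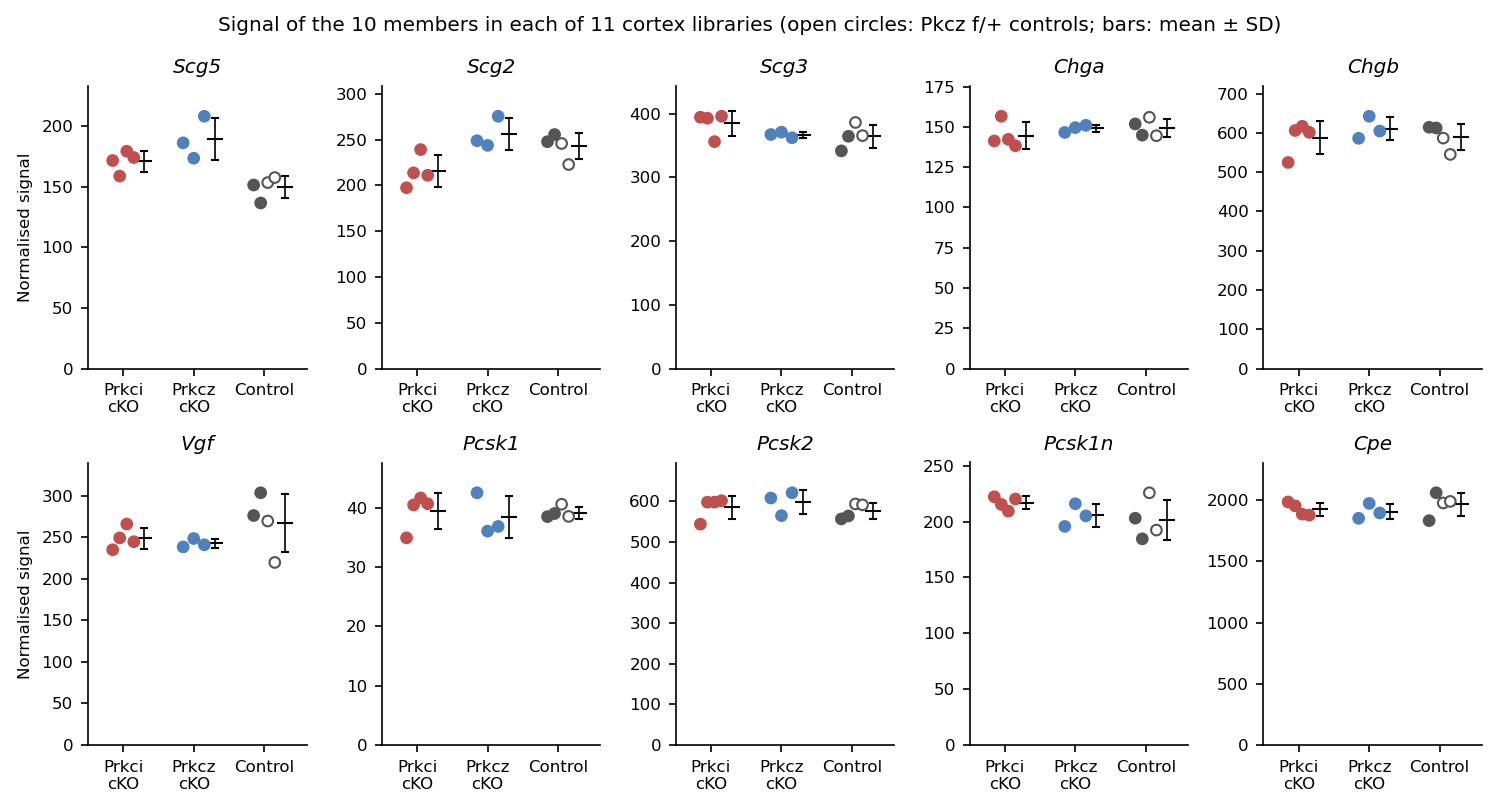
Normalised signal of each gene in each library, on axes from 0, with Prkci cKO, Prkcz cKO and Control from left to right; open circles are f/+ controls and bars the mean ± SD. In Scg5 all knockout points lie above the controls (137 to 158), while in the other 9 genes at least one knockout library lies within the range of controls. The Prkcz cKO and control values of Scg5 entered the choice of genes.

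Counted over the set, no member passed in Prkci cKO against controls, where 230 of 14330 genes tested did (1.61%, with 0.0977% higher and 1.51% lower; limma, Benjamini-Hochberg adjusted p under 0.05). At an unadjusted p under 0.05 there were 2, Scg5 and Scg2, against 12.1% of genes. Scg5 was the 1 of 10 members whose Prkci cKO libraries lay all above the controls, as did 3.18% of genes, and none lay all below, as did 5.32% (8.49% in either direction). The same controls entered the choice of genes through Scg5, so nothing is read from Scg5 in these counts. In Prkcz cKO against controls Scg5 alone passed, where 0.649% of genes did (0.0279% higher and 0.621% lower), and Scg5 alone was under 0.05 unadjusted, against 15% of genes. It was also the only member without overlap there, where 5.16% of genes lay all above and 6.72% all below the controls (11.9% together); nothing is read from these counts, since this comparison entered the choice of genes. Without any one of the 7 libraries the count that passed was 0. Between the knockouts none passed, where 0.300% of genes did (0.237% higher and 0.0628% lower), and Scg2 alone was under 0.05 unadjusted, against 16.0% of genes. In 6.43% of genes every Prkci cKO library lay below every Prkcz cKO library, as in Scg2, and in 7.36% above. The members' median log2 difference was near 0 in each comparison: -3.3e-04 for Prkci cKO against controls, 0.021 for Prkcz cKO against controls, and, for the knockouts against each other, -0.0083. The medians of all genes tested were 0.0021, -0.0061 and -0.0054 in the same comparisons. Between the f/f and f/+ controls no member passed, where 0.154% of genes did (0.0628% higher and 0.0907% lower). Vgf alone was under 0.05 unadjusted, against 12.6% of genes, and the median was -0.029. With 2 libraries a side, 3 members lay all higher in f/f (Scg2, Chgb and Vgf) and 3 all lower (Scg5, Scg3 and Pcsk2), where 23.2% and 24.0% of genes did, or 47.2% together.

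**Figure D4:**
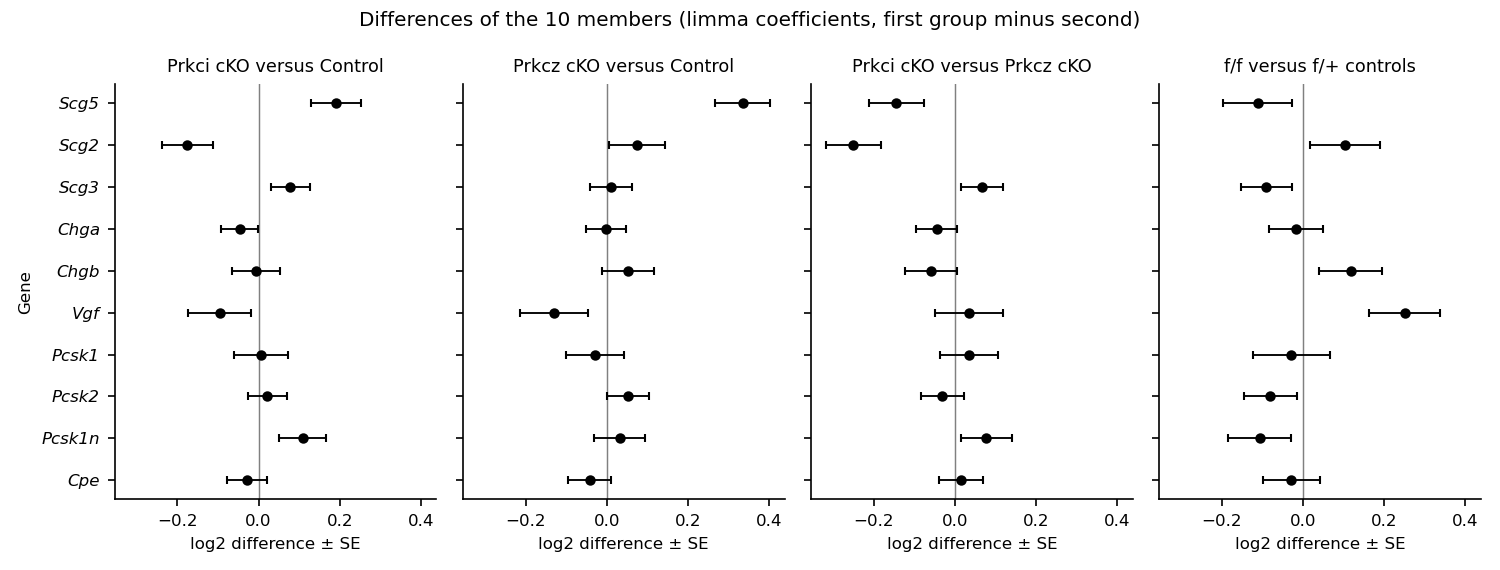
Log2 difference (limma coefficient ± SE) of each gene in the 3 comparisons of genotype and between the f/f and f/+ controls. Scg5 stands at 0.19 and 0.34 against controls, Scg2 at -0.25 between the knockouts, Vgf at 0.25 between the control genotypes, and most others lie near 0.

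Within a library, the balance between a convertase and its partner can be read without regard to scaling. The signal of Scg5 divided by that of Pcsk2 was 0.293 ± 0.0210 in Prkci cKO (SD, n = 4), 0.316 ± 0.0164 in Prkcz cKO (SD, n = 3) and 0.260 ± 0.0130 in controls (SD, n = 4). Prkcz cKO libraries lay at 0.306 to 0.335, all above the controls at 0.242 to 0.272, whereas Prkci cKO libraries, at 0.266 to 0.316, reached into the range of controls. This ratio holds the same Scg5 values as above and is given without a test. The ratio of Pcsk1n to Pcsk1 was 5.53 ± 0.578 in Prkci cKO, 5.39 ± 0.711 in Prkcz cKO and 5.14 ± 0.359 in controls, and its libraries overlapped in all 3 groups.

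Of 23 other genes of granule biogenesis and prohormone processing that could be tested, none passed against controls in either knockout by limma. Their log2 differences ran from -0.13 to 0.18 in Prkci cKO, with a median of 0.016, and from -0.19 to 0.20 in Prkcz cKO, with a median of 0.047. At an unadjusted p under 0.05 there were 0 in Prkci cKO and 3 in Prkcz cKO. The most abundant were Ptprn and Ptprn2, phosphatase-like proteins of the granule membrane. Ptprn averaged 608 in Prkci cKO, 622 in Prkcz cKO and 619.6 in controls. Ptprn2 averaged 616 in Prkci cKO, 621 in Prkcz cKO and 592 in controls. Syt7, a calcium sensor of exocytosis, differed from controls by 0.10 in Prkci cKO and -0.071 in Prkcz cKO. Atp6ap1, a subunit of the proton pump that acidifies granules, differed by -0.0068 in Prkci cKO and 0.061 in Prkcz cKO. The smallest p-values of this group were those of 2 enzymes of the Golgi. Cpd, a carboxypeptidase related to Cpe, differed by 0.0029 in Prkci cKO and by -0.19 in Prkcz cKO (SE 0.062, limma adjusted p = 0.188). Furin, a convertase of the constitutive pathway, differed by 0.088 in Prkci cKO and by -0.12 in Prkcz cKO (SE 0.051, adjusted p = 0.295). Between the knockouts Furin was higher in every Prkci cKO library than in any Prkcz cKO library, and the difference of 0.21 (SE 0.051) did not pass (adjusted p = 0.115).

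The peptide precursors that these granules carry did not change past the threshold either: none of 19 neuropeptide and trophic factor genes passed in either knockout. Penk, the enkephalin precursor, averaged 66.8 in Prkci cKO, 165 in Prkcz cKO and 148 in controls. Its log2 difference in Prkci cKO was -1.22 (SE 0.32, limma adjusted p = 0.0832), and in Prkcz cKO 0.038 (SE 0.35). Tac1, the substance P precursor, averaged 9.36 in Prkci cKO, 16.8 in Prkcz cKO and 16.3 in controls, with a log2 difference of -0.78 in Prkci cKO (SE 0.21) that did not pass. Penk, Tac1 and Pdyn are also among the 13 striatal markers above, whose median log2 difference was -0.89 in Prkci cKO and -0.039 in Prkcz cKO, with none past the threshold (12 in Prkci cKO and 0 in Prkcz cKO under 0.05 unadjusted). Rgs9 and Drd1a had the smallest p-values of these markers. At an unadjusted p under 0.05 there were 6 precursors in Prkci cKO and 0 in Prkcz cKO. Besides Penk and Tac1 these were Nts (-0.42), Cort (-0.44), Bdnf (-0.22) and Nppc (0.28), as log2 differences in Prkci cKO. The most abundant precursors besides Penk were Cck, Sst and Npy. Cck averaged 196 in Prkci cKO, 201 in Prkcz cKO and 186 in controls. Sst averaged 122 in Prkci cKO, 137 in Prkcz cKO and 125 in controls. Npy averaged 78.0 in Prkci cKO, 86.8 in Prkcz cKO and 79.9 in controls.

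General neuronal genes give the level against which the members can be set. Of 14 pan-neuronal markers none passed in either knockout by limma (3 in Prkci cKO and 4 in Prkcz cKO under 0.05 unadjusted), with a median log2 difference of 0.022 in Prkci cKO and 0.029 in Prkcz cKO. Their summed signal was 5429 to 5628 in Prkci cKO, 5636 to 5851 in Prkcz cKO and 5247 to 5612 in controls. Uchl1 (0.24 in Prkcz cKO, adjusted p = 0.121) and Stmn3 (0.19, adjusted p = 0.141) had the smallest p-values and, like Scg5, lay above every control in all 3 Prkcz cKO libraries. In all, 4 of the 14 did so, as did 5.16% of all genes. Of 16 synaptic vesicle genes only Sv2c fell, with -0.50 in Prkci cKO (limma adjusted p = 0.0257), and the list had medians of 0.057 in Prkci cKO and 0.064 in Prkcz cKO. Their summed signal was 16227 to 17398 in Prkci cKO, 16948 to 17187 in Prkcz cKO and 16175 to 16521 in controls. The sums of both neuronal lists thus lay above all controls in Prkcz cKO, as Scg5 did, and overlapped controls in Prkci cKO. By mean log2 level the pan-neuronal markers overlapped, at 8.340 to 8.375 in Prkcz cKO and 8.272 to 8.373 in controls. The synaptic vesicle genes did not, at 9.250 to 9.264 in Prkcz cKO and 9.186 to 9.231 in controls. Among 10 inhibitory neuron markers none passed (2 in Prkci cKO and 1 in Prkcz cKO under 0.05 unadjusted), with Adarb2 and Dlx6 at the smallest p-values. Of 16 mature oligodendrocyte markers, genes of the cells that make myelin, 14 fell in Prkci cKO and 6 in Prkcz cKO, with medians of -0.87 in Prkci cKO and -0.62 in Prkcz cKO. Their summed signal was 3059 to 4901 in Prkci cKO, 4151 to 4620.3 in Prkcz cKO and 5828 to 8773 in controls, so all knockout libraries lay below all controls, while in Scg5 they lay above. Aspa, Ermn, Adamts4, Cldn11, Tspan2 and Ugt8a had the smallest p-values of these markers. The part of a changed mix of cells in the Scg5 difference was not tested. Of 8 oligodendrocyte precursor markers 3 fell in Prkci cKO (Gpr17, Sox10 and Olig2) and 2 in Prkcz cKO (Gpr17 and Sox10). Astrocyte markers, of cells that also make Cpe and Scg3, had medians of -0.024 in Prkci cKO and -0.14 in Prkcz cKO, with 1 of 12 (Aqp4) lower past the threshold in Prkcz cKO. Of 8 endothelial markers 2 fell in Prkcz cKO (Flt1 and Kdr), with all 8 below 0 and a median of -0.22. None passed in Prkci cKO, where all 8 lay above 0, with a median of 0.15 and 3 under 0.05 unadjusted. Their mean log2 level was 4.84 to 4.96 in Prkci cKO, 4.41 to 4.47 in Prkcz cKO and 4.66 to 4.81 in controls. None of 8 microglia markers and none of 5 pituitary, hypothalamus and choroid plexus markers passed in either knockout, and under 0.05 unadjusted there were 2 microglia markers in each knockout and 0 of the others. Cx3cr1 and Csf1r, and Folr1 and Ttr, had the smallest p-values of these lists.

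The genes whose level followed that of Scg5 most closely over the 11 libraries were none of the other members. Among 12132 genes with a mean log2 signal of at least 2, the highest Pearson correlations with Scg5 were those of Fabp3 (r = 0.958), a fatty acid carrier, Lin7b (0.939), a scaffold protein of synapses, Ppia (0.928), the peptidyl-prolyl isomerase cyclophilin A, Atp5c1 (0.916), a subunit of ATP synthase, and Cdkl1 (0.916), a protein kinase. They were picked as the highest of many, and the points share library and depth. Fabp3 averaged 65.8 in Prkci cKO, 69.0 in Prkcz cKO and 60.4 in controls. With group means removed, Fabp3 still correlated with Scg5 at r = 0.864 and Lin7b at 0.889. Of the members, Pcsk2 was closest to Scg5 (r = 0.540, place 1244 of 12132), and Vgf was farthest from it in order (r = -0.576, place 11153). Without the 2 libraries farthest from the median of Scg5, r was 0.235 for Pcsk2 and -0.281 for Vgf. For Vgf the 5 closest genes were BC017647 (r = 0.930), C030019I05Rik (0.903), B130055M24Rik (0.895), Ncoa5 (0.878), a coactivator of nuclear receptors, and Wars (0.858), a tryptophan tRNA synthetase. Of the members, Chgb was closest to Vgf (r = 0.553), and with group means removed Chgb and Scg2 stood at 0.743 and 0.709. These values leaned on few libraries. Without the 2 libraries farthest from the median of Chgb, its r with Vgf was 0.153. Scg2 correlated with Vgf at 0.425, and at 0.308 without the 2 libraries farthest from the median of Scg2.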

How the data were processed

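The authors deposited 1 table of normalised signal for each gene in each library, with 2 decimals; its columns sum to 1021770 to 1082560, and the exact scaling is unknown. The submitters' processing notes name edgeR, RSEM, STAR, FastQC and Trim Galore, and the build GRCm38, without versions, annotation or strand. In each library 85.9% to 89.2% of the values below 0.5 were whole multiples of one step (tolerance 0.005), where even spacing gives 14.7% to 28.2%. This gave relative depth but not whole reads for nearly all genes, so no count test was run.

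Signals were taken as log2(signal + 0.5), which understates changes of low genes. All 11 libraries entered 1 fit in limma 3.58.1 (R 4.3.3; variance trend, 8 residual degrees of freedom; 7 with the controls split by genotype). P-values are two-sided and adjusted by Benjamini-Hochberg over 14330 genes, with 0.05 as the threshold. The label replicates are described as biological. The members and lists were chosen with earlier results of these data known. Named genes were the 10 members, up to 6 genes past the threshold (or the 2 with the smallest p) of each list, the 4 most abundant of the granule and precursor lists, and the 5 most like Scg5 and Vgf, with Prkci and Prkcz; Rbfox3, Slc17a7, Pdyn, Nts, Cort, Bdnf and Nppc were named after their values were seen. In simulated data with 14330 genes, 200 changed genes were drawn from those with a mean log2 signal of at least 2. Log2 changes of 0.3, 0.4 and 0.5 were found in 45.0%, 65.5% and 84.0% of them for Prkci cKO against controls. For Prkcz cKO against controls they were found in 32.0%, 65.5% and 82.0%. Positions and exon lengths come from GENCODE M21 on GRCm38. No pair of libraries shared more than 0.44% of its values. Other pseudocounts, filters, scalings, sample sets and variance models were tried, as were a block on replicate number and the omission of single libraries.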

Additional observations from a re-analysis of the deposited data

Results flagged for a closer look

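In 3 of the 20 sets of 4 libraries (10 genes, in Prkci cKO and in controls), one library stood apart from the other 3 by more than Dixon's 95% limit, which chance passes in about 1 set in 20. Scg3 in Prkci cKO replicate 3 was 356, the lowest of its group. Chgb in Prkci cKO replicate 1 was 525, also the lowest. Pcsk2 was lowest in the same Prkci cKO replicate 1, at 544.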

How the results depend on the processing

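No member passed in Prkci cKO against controls, between the knockouts, or between the control genotypes under any alternative run for each. In Prkcz cKO against controls the count of 1 (Scg5) became 0 in the fit with no trend of the variance, in the fit of just these 2 groups, with f/f controls only, and with the replicate block. It was 0 when any one of the 7 libraries was left out, with Scg5 differences of 0.26 to 0.40. These describe the call that entered the choice of genes and are no test of it. Whether the numbers pair the libraries was not settled. In their deviations from group means, same-numbered libraries correlated at -0.19 to 0.20 and differently numbered ones at -0.23 to 0.27. The -0.19 was that of Control replicate 4 with Prkci cKO replicate 4. Over all genes the replicate block gave 263 calls in Prkci cKO, 69 in Prkcz cKO and 73 between the knockouts. Without it there were 230, 93 and 43. A batch shared by number was not tested. With the replicate block Scg5 differed by 0.32 in Prkcz cKO and 0.19 in Prkci cKO, and Scg2 by -0.26 between the knockouts, none past the threshold. Vgf and Pcsk1n differences against controls moved by over 1.5 times with single controls left out, as given with these genes. So did Scg2 in Prkcz cKO, from 0.075 to 0.034 without Control replicate 2. Scg3 in Prkci cKO did too, from 0.078 to 0.048 without Control replicate 3. Smaller differences of other members also moved by as much. Signs turned only in values near 0. Chga in Prkcz cKO was 0.0028 with median of ratios scaling, 0.022 with equal sums without Rn45s and 0.0069 against the f/f controls, where Chgb was -0.0067; Cpe between the knockouts was -0.0080 with equal sums without Rn45s. Leaving out one library gave, for Prkci cKO against controls, -0.044 to 0.046 in Chgb and -0.021 to 0.063 in Pcsk1. For Prkcz cKO against controls it gave -0.017 to 0.019 in Chga, -0.10 to 0.016 in Pcsk1, -0.0083 to 0.089 in Pcsk1n and -0.020 to 0.039 in Scg3. Between the knockouts it gave -0.0066 to 0.039 in Cpe, -0.0089 to 0.11 in Pcsk1 and -0.071 to 0.0041 in Pcsk2. The cause was not tested. Over all genes the count of calls ranged over the alternatives from 95 to 349 in Prkci cKO, 13 to 111 in Prkcz cKO and 10 to 152 between the knockouts. In simulated data a log2 change of 0.3 in Prkcz cKO was found in 32.0% of changed genes and one of 0.4 in 65.5%. These rates are for genes drawn from the whole range above a low limit of signal, and were not worked out for the 10 members.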
